A study of Mus musculus with 2 samples.

Results

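The miR-130/miR-301 family was examined in small RNA sequencing of mouse lung at embryonic day 16.5. It comprises 4 genes, Mir130a, Mir130b, Mir301 and Mir301b, out of 1973 microRNA genes in the count tables. The members were chosen by name: a row belongs to the family where its identifier, with the version removed, carries one of these names in GENCODE release M21. The samples were lungs of strain B6NCrl embryos, described as healthy, with males and females pooled, and they carry no named treatment or allele. They form a single group of 2 biological replicates, sequenced as 1 library each from RNA under 30 bases. Replicate 2 was a pool of 41 embryos, and the labels give no number for the other pool. Because these are bulk tissue samples, fewer cells of a type and less RNA per cell cannot be told apart in any level below.

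A microRNA guides Argonaute proteins to messenger RNAs, mainly through its seed, bases 2 to 8 counted from the 5′ end, which pairs with sites in the 3′ untranslated region and lowers translation and stability of the message. Members of the miR-130/miR-301 family carry the same seed on the 3p arm, the arm cut from the 3′ side of the hairpin, so they are predicted to share targets. In endothelial cells of human origin miR-130a is known to repress the homeobox regulators GAX and HOXA5 and to favour angiogenesis. In lung the family is known for repressing PPARG, a nuclear receptor of vascular cells, in pulmonary hypertension.

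The mature arms and hairpins below are RefSeq sequences on build GRCm38.p6, which has the coordinates of mm10, and are given 5′ to 3′ with the seed in capitals. The first set shows what the family shares, namely the seed of the 3p arm. No mature 3p entry was used for Mir301b, and its whole hairpin is given instead, with the same 7 bases in capitals.

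miR-130a-3p: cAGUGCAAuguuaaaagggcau
miR-130b-3p: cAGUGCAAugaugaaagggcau
miR-301a-3p: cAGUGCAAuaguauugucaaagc
Mir301b hairpin: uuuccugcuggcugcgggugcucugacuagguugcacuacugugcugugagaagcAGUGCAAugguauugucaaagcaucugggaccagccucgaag

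Each of the 4 hairpins held the 8 bases that open these arms exactly 1 time. Past the seed the genes fell into a Mir130a and Mir130b pair and a Mir301 and Mir301b pair. Over the 22 bases that start with those 8 shared bases, with positions counted from the first of them and the base of the gene named first given first, Mir130a and Mir130b differed at 2 positions (U11A and A13G) and Mir301 and Mir301b at 1 (A10G). Between the pairs, 9 to 11 of the 22 bases differed.

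The 5p arms, shown next because their seeds are not shared by all members, start with related but different bases.

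miR-130a-5p: gCUCUUUUcacauugugcuacu
miR-130b-5p: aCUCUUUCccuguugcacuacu
miR-301a-5p: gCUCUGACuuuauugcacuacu
miR-301b-5p: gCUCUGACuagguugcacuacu

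Here the seed was common to miR-301a-5p and miR-301b-5p, which differed at 3 of 22 positions from the 5′ end (U10A, U11G and A12G, the base of miR-301a-5p first). In the miR-130 arms the seeds differed from that one and from each other. A count in these tables belongs to a gene and sums its 5p and 3p arms, so no value below is that of an arm.

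**Figure D1:**
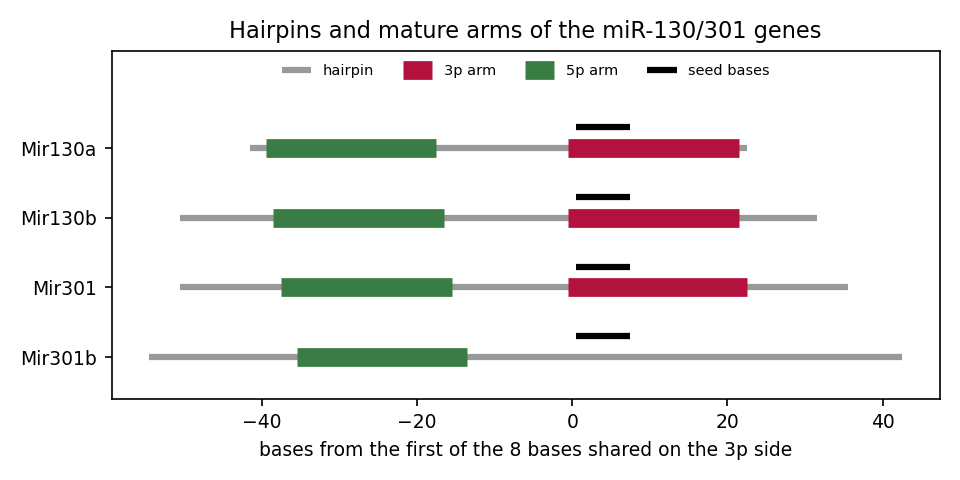
Layout of the 4 hairpins (rows), with distance in bases from the first of the 8 shared bases on the horizontal axis. Grey lines are hairpins of 64 (Mir130a), 82 (Mir130b), 86 (Mir301) and 97 bases (Mir301b), coloured bars the mature arms listed in RefSeq and black bars the seed. The hairpins are aligned on the shared bases, the 5p arms lie upstream of them, and no 3p bar is drawn for Mir301b.

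The genes occupy 3 loci (mm10, 1-based). Mir130a (ENSMUSG00000065484.1) lies on chromosome 2 at 84741115 to 84741178, minus strand, inside no other annotated gene. The nearest gene on its strand was Gm19426, 990 bases upstream. Mir301 (ENSMUSG00000065589.1) was annotated within an intron of Ska2, between 87113004 and 87113089 of chromosome 11 on the plus strand, the strand of Ska2. Ska2 encodes a subunit of a kinetochore complex that attaches chromosomes to the spindle. Mir130b (ENSMUSG00000065572.1) at 17124061 to 17124142 and Mir301b (ENSMUSG00000076288.1) at 17124400 to 17124496 lie on chromosome 16, minus strand, in an intron of the protein-coding gene 2610318N02Rik. These clustered hairpins are 257 bases apart, with Mir301b upstream. The folding energy predicted for each hairpin was -0.35 kcal/mol per base for Mir130a, -0.37 for Mir130b, -0.43 for Mir301 and -0.40 for Mir301b, against a median of -0.44 over the 295 detected genes with a RefSeq hairpin. Of the 4 members Mir130a had the weakest predicted fold per base, and 91.2% of those hairpins had a lower energy per base. Its annotated hairpin is also the shortest of the 4, at 64 bases against 82 to 97. The part of annotated length in the energy per base was not tested.

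The depth behind the values was 6376715 counts over microRNA genes in replicate 1 and 4123748 in replicate 2, or 49.6% and 48.8% of the reads in the tables, with 30.0% and 31.8% set apart as matching several loci. Levels are given in CPM, the count of a gene divided by its library's gene total and multiplied by 1000000. A gene is called detected where both libraries reached 10 counts, which 347 genes did. Markers of lung cell types were present: Mir126a of endothelium held 8.73% and 7.91% of gene counts in replicates 1 and 2, the 5 mesenchymal and smooth muscle markers 7.58% and 7.82%, and the 5 epithelial markers 3.26% and 3.39%. Of 5 neural markers in the tables none was detected, Mir124a-1 and Mir9-2 were at 0, and their sum was 4.705e-05% and 3.88e-04%. Each of these neural genes shares 22 or more bases with another microRNA gene, so its reads can be among those set apart as matching several loci, and low counts do not show that neural microRNAs were absent. The same holds for Mir199a-1 and Mir199a-2 among the mesenchymal markers.

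By counts assigned to single genes, Mir130a was one of the most abundant microRNAs of the lung, and its relatives stood far below it. Ranks and shares here and below leave out reads matching several loci (30.0% and 31.8% of reads in replicates 1 and 2). MicroRNA genes with sequence copies can therefore rank too low. None of the 4 members shares 22 bases with another microRNA hairpin. Mir130a had 168341 counts in replicate 1 and 103427 in replicate 2, which is 26399 CPM (95% exact Clopper-Pearson interval 26275 to 26524) and 25081 CPM (24930 to 25232). Mir130b had 20874 and 14518 counts, or 3273 CPM (3229 to 3318) and 3521 CPM (3464 to 3578). Both genes were high in both libraries, and they ranked 10 and 46 among all genes by mean level. Mir301 had 6454 and 3271 counts, or 1012 CPM (988 to 1037) and 793 CPM (766 to 821). Mir301b had 256 and 158 counts, or 40.1 CPM (35.4 to 45.4) and 38.3 CPM (32.6 to 44.8). These genes ranked 106 and 238, and the low counts of Mir301b give it the widest interval relative to its level. These intervals describe counting error alone, because no molecular identifiers are named in the labels and reads cannot be taken as separate molecules.

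All 4 members were detected. Their means were 25740 CPM ± 932 for Mir130a, 3397 ± 175 for Mir130b, 903 ± 155 for Mir301 and 39.2 ± 1.30 for Mir301b (SD, n = 2 each). This order was the same in both libraries, and the values of neighbours in it did not overlap. Among detected genes, 97.1% lay below Mir130a and 31.4% below Mir301b. A read of a mature microRNA is a whole molecule, so levels were not divided by hairpin length; with that division, added after seeing the data, the order stayed Mir130a (32728), Mir130b (3371), Mir301 (854) and Mir301b (32.9) on a length-scaled CPM.

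**Figure D2:**
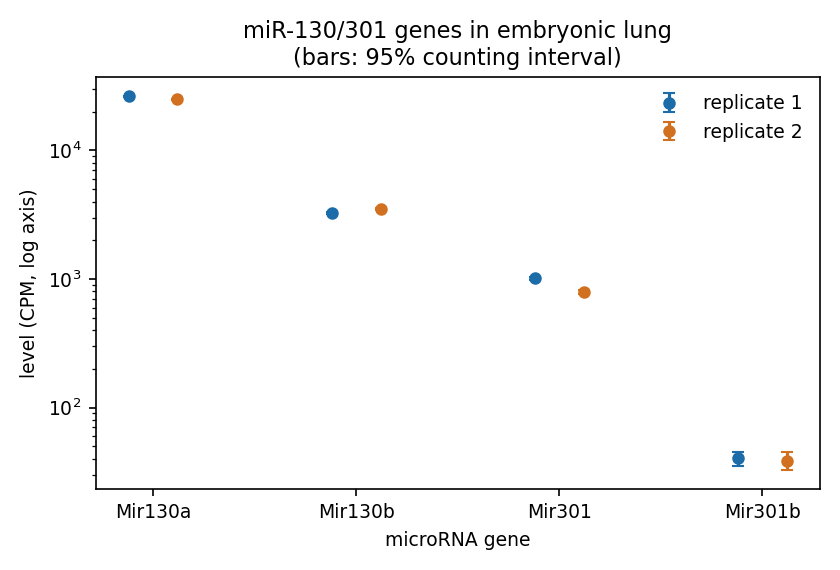
Level in CPM on a log axis (vertical) of each gene (horizontal) in replicate 1 and replicate 2. Points are libraries and bars their exact 95% counting interval, mostly smaller than the point; the levels step down from 26399 and 25081 CPM for Mir130a to 40.1 and 38.3 CPM for Mir301b.

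**Figure D3:**
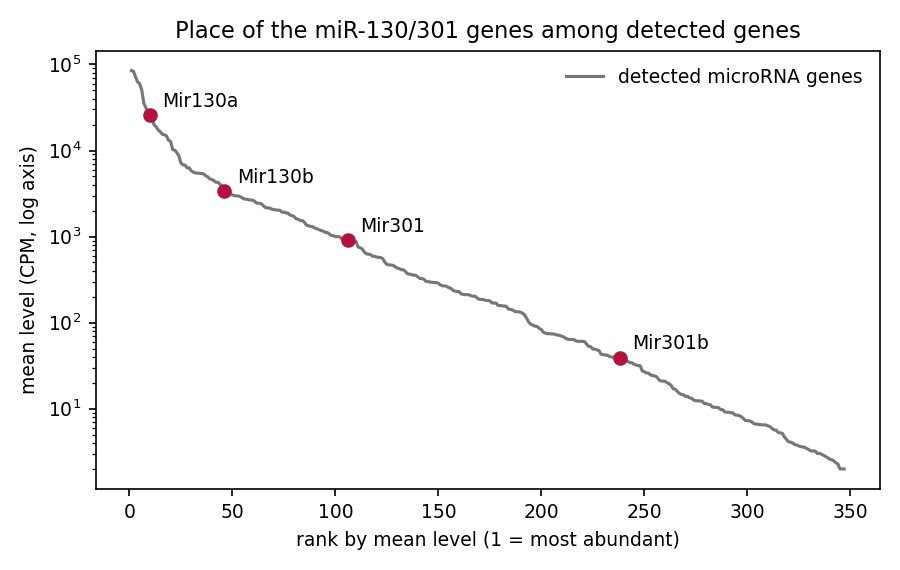
Mean level in CPM on a log axis against rank for the 347 detected genes (grey line), with the 4 family members as red points. Mir130a sits at rank 10 on the steep part of the curve and Mir301b at rank 238 on the lower slope.

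Together the family held 195925 counts in replicate 1 and 121374 in replicate 2, which is 3.07% (3.06 to 3.09) and 2.94% (2.93 to 2.96) of gene counts, a mean of 3.01% ± 0.0914 (SD, n = 2). Within the family Mir130a made up 85.9% and 85.2%, Mir130b 10.7% and 11.96%, Mir301 3.29% and 2.70%, and Mir301b 0.131% and 0.130%. A leading gene with most of the counts was not particular to this seed. Over 17 seeds with 3 or more detected genes, the leading gene held a median of 65.7% of its seed's counts. This seed, counted without Mir301b, ranked 6 among them at 85.7%. Reads matching several loci are missing from these shares too. By locus, chromosome 2 gave 85.6% ± 0.500 of the family's counts, the chromosome 16 cluster 11.4% ± 0.924 and chromosome 11 2.99% ± 0.424 (SD, n = 2 each). Genes with the Mir130a type of 3p arm held 96.6% and 97.2%, and the Mir301 type 3.42% and 2.83%.

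The paralogues differed in level by large factors, which moved between the libraries by more than counting error in some pairs and not in others. Mir130a exceeded Mir130b by 8.06-fold in replicate 1 (95% interval 7.95 to 8.18) and 7.12-fold in replicate 2 (7.00 to 7.25). Its excess over Mir301 was 26.1-fold (25.4 to 26.7) and 31.6-fold (30.5 to 32.8), and that over Mir301b was 658-fold (582 to 746) and 655-fold (560 to 770). The first of these factors was larger in replicate 1 and the second in replicate 2, with intervals that do not overlap, while the intervals against Mir301b overlap almost wholly. Mir130b was above Mir301 by 3.23-fold (3.15 to 3.33) and 4.44-fold (4.27 to 4.61), and Mir301 was above Mir301b by 25.2-fold (22.3 to 28.7) and 20.7-fold (17.6 to 24.4). Of the 6 pairs of members, the step between Mir130b and Mir301 was the one that changed most between the libraries in relative terms.

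Mir130b and Mir301b, the genes of the chromosome 16 cluster, differed by 81.5-fold in replicate 1 (72.1 to 92.6) and 91.9-fold in replicate 2 (78.6 to 108), with overlapping intervals. Across the lung data, 94 pairs of detected microRNA genes were next to each other on a strand within 10 kb, and the median fold between the genes of a pair was 8.15 by mean CPM. In 7 of these pairs (7.45%) the fold was larger than in this cluster, where it was 86.6. Among the 65 pairs in which neither gene shares 22 bases with another microRNA gene, 2 had a larger fold. Pairs in which a gene was not detected were left out, and their folds can be larger still. The place of this cluster therefore holds among pairs of detected genes only. None of the 4 family hairpins shares that many bases with another of the 2202 hairpins searched. Their longest shared runs were 17 bases for Mir130a (with Mir6389) and 16 bases for each of the others, in the case of Mir301 and Mir301b with each other. How many mismatches the authors' alignment allowed is not stated in the labels or headers, so an exchange of reads between Mir301 and Mir301b, whose 3p windows differ by 1 base, was not tested.

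No counts came from the other mouse microRNAs with this seed that were in the tables. RefSeq lists it in 7 genes, counting by mature entries, and those outside the family are Mir130c, Mir6341, Mir6389 and Mir721. The arms of those in the tables are shown because they carry the seed and differ past it.

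miR-130c: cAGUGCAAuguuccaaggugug
miR-6341: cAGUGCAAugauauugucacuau
miR-6389: cAGUGCAAuguuaaacuuugc

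Mir130c, Mir6341 and Mir6389 had 0 counts in both libraries, which allows up to 0.470 CPM in replicate 1 and 0.727 CPM in replicate 2 (3 counts). Counts of 0 in both libraries were common, in 1264 of all 1973 genes, so they are not particular to this seed. Mir721 is not analysed here.

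Several microRNAs outside the family carry 6 of its 7 seed bases, shifted by 1 position. They are given with the shared 6 bases in capitals, since sites for them can overlap those of the family.

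miR-148a-3p: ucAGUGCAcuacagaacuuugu
miR-152-3p: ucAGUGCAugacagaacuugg
miR-19a-3p: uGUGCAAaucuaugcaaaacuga

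The 6 genes listed for this, Mir148a, Mir148b, Mir152, Mir19a, Mir19b-1 and Mir19b-2, were all detected. They were chosen by name, and other microRNAs with these bases were not searched for. Their mean levels ran from 7.07 CPM (Mir19b-2) to 626 CPM (Mir148a), against a median of 180 CPM over all detected genes. The family held 3.01% of gene counts, against 0.101% ± 2.70e-04 for these genes together (SD, n = 2). Mir148a, which in human cells is known to repress DNA methyltransferases, led them with 635 CPM in replicate 1 and 617 CPM in replicate 2. Mir19a, of the growth-promoting Mir17 cluster, had 48.8 and 37.1 CPM, close to Mir301b. Mir19b-1 and Mir19b-2 yield the same mature 3p arm, so their reads match more than 1 locus and their counts are uncertain.

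A list of 12 microRNAs studied with the family in lung vessels and airways was read beside it. These were Mir204, Mir322, Mir503, Mir21a, Mir210, Mir221, Mir222, Mir126a, Mir143, Mir145a, Mir27a and Mir27b. All 12 were detected and together held 25.6% and 25.3% of gene counts in replicates 1 and 2. Mir130a lay below Mir322 (84676 CPM ± 2070), Mir126a (83199 ± 5768) and Mir143 of smooth muscle (71247 ± 1447), and above the other 9, of which Mir21a was the highest at 8695 ± 69.2 (SD, n = 2 each). Mir130b exceeded 8 of the 12, including Mir27b (2293 ± 146) and Mir503 (2026 ± 21.4). Mir221, which has been studied together with miR-130a in branching of cultured lung, was at 286 CPM in replicate 1 and 303 CPM in replicate 2, below Mir130a, Mir130b and Mir301. Mir204, which lies in the same network of pulmonary hypertension, was at 95.5 ± 6.90, between Mir301 and Mir301b.

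**Figure D4:**
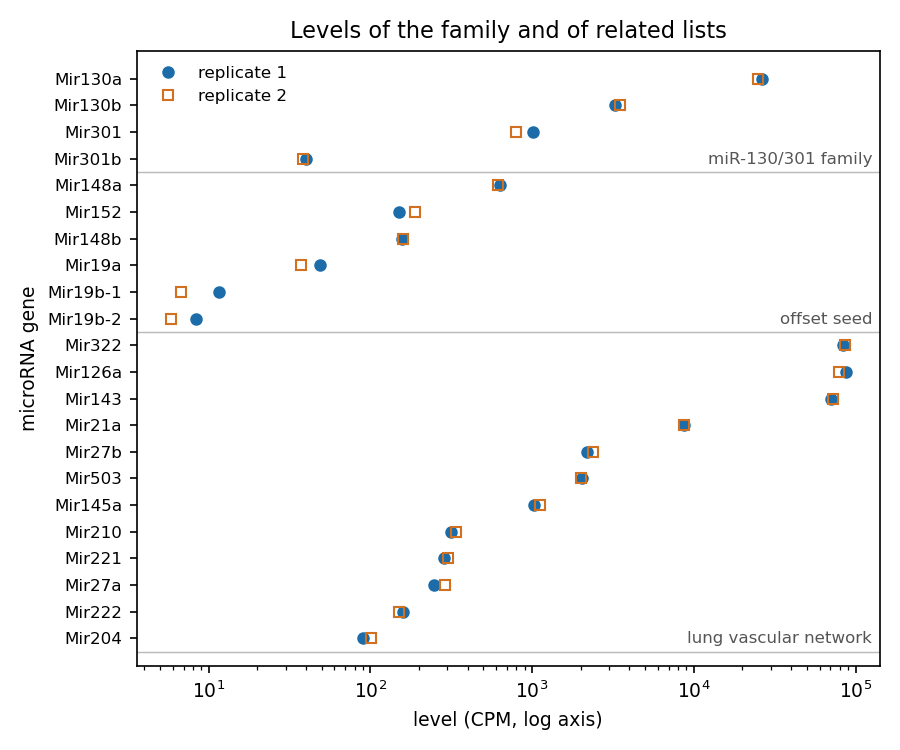
Level in CPM on a log axis (horizontal) of the 4 family genes, the 6 genes with an offset seed and the 12 genes of the vascular list (vertical), with filled circles for replicate 1 and open squares for replicate 2. Mir130a lies near the right edge below only Mir322, Mir126a and Mir143, and the offset-seed genes lie at or below 635 CPM.

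The genes outside the family with the most similar values were found by the Euclidean distance of log2(CPM + 1) over the 2 libraries. For Mir130a these were Mir23b (distance 0.15), Mir10a (0.25) and Mir26b (0.42). For Mir130b they were Mir369 (0.12), Mir182 (0.15) and Mir541 (0.19), and for Mir301 Mir135b (0.13), Mir199b (0.18) and Mir188 (0.20). Mir301b was nearest to Mir668 (0.06), Mir150 (0.06) and Mir412 (0.14). With 2 libraries such likeness is mostly likeness of level. Mir23b, for one, was lower than Mir130a in replicate 1 (25854 CPM) and higher in replicate 2 (27740 CPM).

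The libraries were compared gene by gene to see how far the members repeat between pools. Mir301 was 1.28-fold higher in replicate 1 than in replicate 2 (95% interval 1.22 to 1.33; log2 ratio 0.35, adjusted p = 1.29e-29 by an exact binomial test). Mir130a was 1.05-fold higher in replicate 1 (1.04 to 1.06; log2 ratio 0.07, adjusted p = 1.34e-37, exact binomial test). Mir130b was lower in replicate 1, at 0.930 of its level in replicate 2 (0.910 to 0.950; log2 ratio -0.10, adjusted p = 9.50e-11, exact binomial test). The ratio of Mir301b was 1.05 (0.856 to 1.29; adjusted p = 0.767, exact binomial test), so no difference was detectable at this depth, and the interval reaches 1.29-fold. The test sets the reads of these 2 libraries against counting error alone, with no replicate check and no bearing on a condition. With 1 library per pool, differences between pools of embryos and between library preparations cannot be told apart.

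In all, 3 of 4 members were called, 2 higher in replicate 1 and 1 higher in replicate 2. Over all 347 detected genes 47.0% were called, 16.4% higher in replicate 1 and 30.5% higher in replicate 2 (57 and 106 genes; 74 and 84 with edgeR's TMM factors, 78 and 75 with DESeq2's size factors). The share called differed with level. Among genes within 2-fold of its own level, 92.3% were called for Mir130a, 81.1% for Mir130b, 74% for Mir301 and 21.7% for Mir301b. Calls at a difference of at least 1.5-fold covered 5.19% of detected genes and none of the members. The median log2 ratio was 0.07 over the members and -0.05 over all detected genes. Of the 6 genes with an offset seed, Mir19a and Mir19b-1 were called higher in replicate 1 and Mir152 higher in replicate 2, with a median log2 ratio of 0.22 over the list. In the vascular list 1 of 12 was called higher in replicate 1 (Mir126a) and 5 higher in replicate 2 (Mir322, Mir143, Mir145a, Mir27a and Mir27b), with a median of -0.07.

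Each member was also read against the genes within 2-fold of its own level. The absolute log2 ratio of Mir130a was 0.07, against a median of 0.11 over 13 such genes, 9 of which had a larger one. That of Mir130b was exceeded by 26 of 53 genes. For Mir301 it was 0.35, against a median of 0.12 over 50 genes, of which 7 (14.0%) had a larger one. Mir301b, at 0.07 against 0.19, was exceeded by 48 of 60 genes. Marker lists also differed between the libraries. The 5 multiciliated markers held 1.55% of gene counts in replicate 1 and 1.96% in replicate 2, the single liver marker Mir122 0.0111% and 0.0601%, and the 3 blood markers that could be counted 0.172% and 0.138%. All of these genes were detected. Most of the multiciliated share came from Mir449a, at 14581 and 18445 CPM in replicates 1 and 2. Of that list, 3 genes were called higher in replicate 2 (Mir449a, Mir34b and Mir34c). Mir449b and Mir449c were not called. The blood markers did not move together: Mir451a (747 and 408 CPM in replicates 1 and 2) and Mir144 (278 and 232 CPM) were called higher in replicate 1, and Mir223 (697 and 740 CPM) was called higher in replicate 2. Of the muscle markers, 2 of the 5 counted were detected, with a sum of 0.0830% and 0.0968%. Mir206 had 294 CPM in replicate 1 and 643 CPM in replicate 2, while Mir208a had 536 and 324 CPM, so these moved in opposite directions. Mir1a-1, Mir133a-1 and Mir133a-2 were at 0, but each shares 22 or more bases with another microRNA gene, so these counts say nothing of the level of their mature arms. The part of such differences in those of Mir301, Mir130a and Mir130b was not tested.

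**Figure D5:**
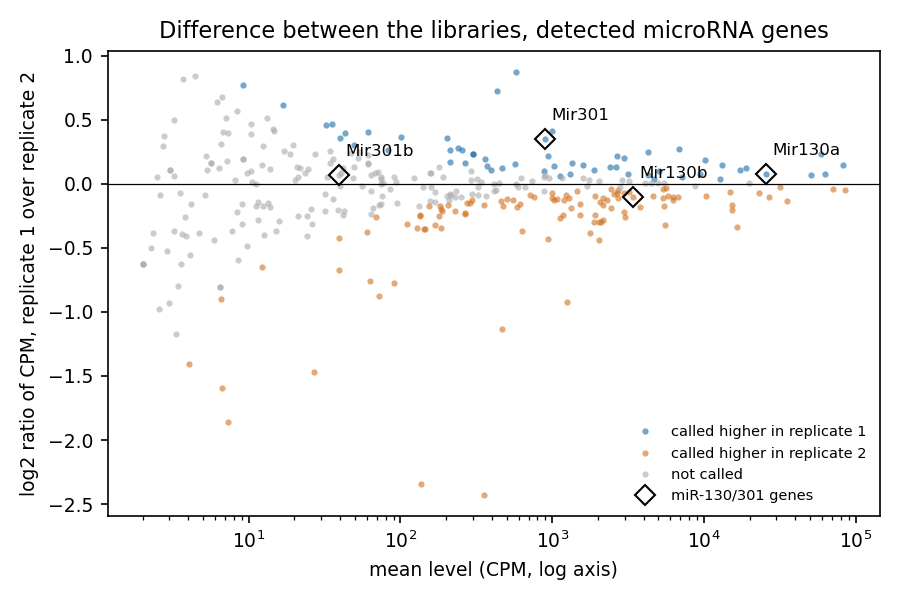
Log2 ratio of CPM in replicate 1 over replicate 2 (vertical) against mean level in CPM on a log axis (horizontal) for the 347 detected genes, coloured by the call of the exact binomial test, with the family as open diamonds. Mir301 stands at 0.35 above most genes of its level, and Mir130a, Mir130b and Mir301b lie within 0.11 of 0.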

How the data were processed

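Small RNA of 2 biological replicates of embryonic lung was counted per microRNA gene. The deposited values are raw, unscaled read counts. Per the file headers, they refer to assembly mm10 and GENCODE release M4 and derive from alignments. Aligner and counter: not given in the sources used here. Of the 3 unnamed count columns, the first was used; in each of the 1973 genes it equals the second plus the third, which were read as sense and opposite strand from their values. Summary lines (unmapped 17.98% and 16.6%, several loci 30.0% and 31.8%, outside genes 2.49% and 2.84%, ambiguous 0%) stayed out of totals and tests.

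CPM was computed over gene totals of 6376715 and 4123748. Names and positions come from GENCODE M21 on the same build (1894 of 1973 identifiers matched), and sequences from RefSeq, where all 4 hairpins matched; hairpins were folded with RNAfold 2.7.2. Genes with at least 10 counts in each library were tested by a two-sided exact conditional binomial test against the gene totals, with Benjamini-Hochberg adjustment over all 347 and a threshold of 0.05; with 1 group of 2 libraries no residual degrees of freedom were left for edgeR's test, and p-values measure counting error between libraries that may also differ technically. The libraries differed by more than sampling noise (chi-square 27486 on 346 degrees of freedom). edgeR 4.0.16 and DESeq2 1.42.0 gave alternative scaling factors over detected genes, in R 4.3.3; the rest ran in Python 3.11.15 with scipy 1.17.1. The test and its interval were run on simulated counts that varied by counting error alone, as the test assumes. Such counts cannot show how the test behaves under the larger differences between these libraries.

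All members are named, with the 3 nearest genes to each, genes of the same seed, the offset-seed and vascular lists and annotated neighbours within 10 kb. Members and lists were chosen with earlier results of these data known. Signal tracks and alignments were not used.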

Additional observations from a re-analysis of the deposited data

Results flagged for a closer look

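Mir130a had 4 counts on the strand opposite to the gene in replicate 2 and 1 such count in replicate 1. It was listed because 4 is above the 3 counts that a count of 0 allows. That limit is not a test of noise beside 103423 counts on the other strand, and no conclusion is drawn from it. The strand columns carry no names and were read from their values, and they were not used for the main levels. The cause was not tested. On the strand read as sense the gene had 168340 counts in replicate 1 and 103423 in replicate 2, and the other members had 0 counts on the opposite strand in both libraries. With sense counts for both genes and totals, the mean level of Mir130a was 26447 CPM, against 25740 CPM from both strands. The share of its counts on the opposite strand was therefore smaller than that over all genes.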

How the results depend on the processing

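Of 104 alternative values, 96 stayed within the limit set for their kind (1 SD of the replicates for a level, share or ratio of members, the same direction and call for a log2 ratio, a factor of 1.5 for a count) and 8 moved by more. Some of the 96 could not have moved. With 2 replicates, a value that leaves 1 of them out always lies within 1 SD of their mean. A count filter cannot change a member's log2 ratio, only its adjusted p. The tally is therefore no measure of robustness. Counts within that factor still moved: over all genes the calls numbered 139 with no filter, against 163, and with DESeq2 size factors 78 were higher in replicate 1 and 75 in replicate 2, against 57 and 106, so the direction with more calls changed. With all reads of the table as denominator the family share was 1.48% and the levels were 12659 (Mir130a), 1670 (Mir130b), 444 (Mir301) and 19.3 (Mir301b) per 1000000 reads, since the denominator is larger by construction. Without the gene most abundant by mean level, Mir322, in the totals the share was 3.29%. Division by hairpin length, chosen after seeing the data, gave 32728 for Mir130a and 32.9 for Mir301b.

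Leaving out each replicate gave shares of 2.94% to 3.07%. The 3 called members kept their call and direction under TMM factors, DESeq2 size factors, the sense strand column and every count filter run, with log2 ratios of 0.07 to 0.13 (Mir130a), -0.11 to -0.05 (Mir130b) and 0.35 to 0.40 (Mir301). Mir301b was not called under any of them, with adjusted p of 0.540 to 1 by the exact binomial test. Depth limits Mir301b most, with 256 and 158 counts. No paired analysis was possible because the libraries form a single group.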
